A study of Mus musculus with 2 samples.

Results

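LSD1 (KDM1A) is an enzyme that removes methyl groups from lysines of histone H3, and the regions described here are the LSD1 peak clusters near the distal end of mouse chromosome 4. They were chosen by position in the authors' deposited list of peaks: every peak on chromosome 4 of the build mm9 with a start (counted from 0) of at least 143000000 and below 150000000. The 537 peaks of the same chromosome that start before this stretch are called the proximal peaks below. This gave 346 peaks of the 11797 in the list, or 2.93%. The stretch was selected because peaks were already known to be dense in it, so its density is the reason for the choice and not a result. Every value below comes from the same comparison that drew attention to the stretch, and all of them are given as descriptions with no test.

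The list came from chromatin immunoprecipitation followed by sequencing in C2C12, an established mouse myoblast line whose cells fuse into myotubes when serum is lowered. There was 1 library made with an antibody against LSD1 and 1 input library made without antibody. Both came from cells kept in medium with 25 mM glucose, first with 10% fetal bovine serum and then for 48 h with 2% horse serum, and both were fixed with formaldehyde and disuccinimidyl glutarate. No cells without LSD1, no undifferentiated cells and no second culture entered the comparison, so none of the values has a replicate error. Read numbers are not part of the list, and the depth of both libraries is unknown. Gene expression was not analysed here, so the identity of the cells could not be checked against marker genes.

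LSD1 acts in corepressor complexes with CoREST and histone deacetylases, and it can also assist transcription factors as a coactivator. In muscle precursors it is known as a partner of the factors that switch on myogenic genes. The distal part of mouse chromosome 4 is known for families of duplicated genes. One is a cluster of Pramel and Oog genes, which encode leucine-rich repeat proteins expressed in germ cells. Another is a cluster of KRAB zinc finger genes, whose proteins bind DNA and repress transcription, many of them at transposable elements.

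The order of these genes was read from the RefSeq gene table of GRCm38, a later build than that of the peaks, and no position was taken from it. Between Lrrc38 and 1700012P22Rik the table lists 42 genes, 23 of which carry a Pramel or Oog name and are not pseudogenes. Further along, between Tnfrsf8, a receptor of the tumour necrosis factor family, and Miip, the table lists 82 genes. Only 19 of those are protein-coding and 56 are pseudogenes. Of the 19 coding genes, 17 are Rex2 or carry a Zfp (zinc finger protein) name, and 6 of the pseudogenes are relics of Vmn2r vomeronasal receptors. Which of these genes lie under which peaks was not analysed here, since an annotation of mm9 was not used. For the same reason no peak sequence is shown. How reads that match several copies of a duplicated sequence were placed is not given in the sources used, and peak lengths, coverage and start patterns in such a stretch can depend on it; this was not tested.

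The peaks were concentrated in the middle of the stretch. Its first megabase held no start at all, and the second held 8. The third megabase held 128 starts and the fourth held 167. The counts in the last 3 megabases were lower, with 38, 2 and 3 starts. In the proximal part of the chromosome the 140 windows of 1 Mb had a median of 3 starts and a highest value of 17, and 16 of them held none.

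The limits of the stretch do not pass through a cluster. The last peak before the stretch was chr4:142868132-142868704, 573 bp long with a score of 82.87. The first member was chr4:144016420-144016693, 274 bp long with a score of 51.34, so 1.15 Mb without a start separates them. At the far end the last member was chr4:149918730-149919317, 588 bp long with a score of 112.4. The first peak beyond was chr4:150168850-150169401, 552 bp long with a score of 81.72, and 3 peaks of the chromosome lay beyond the stretch in all. The score is the one the authors' peak caller gave each peak. Its scale is not stated, and it serves here only to rank peaks within the list.

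Peaks were taken to form an array where at least 20 of them followed each other with starts at most 50 kb apart. The stretch held 4 such arrays with 315 of the 346 members (91.0%). This share rests on the 50 kb step: it was 67.9% with steps of at most 20 kb and 32.1% with 10 kb. A further chain of 18 peaks met the distance but not the number. With it, 333 members (96.2%) lay in 5 blocks that together spanned 1.71 Mb. The 4 arrays and everything between them fitted into 2.21 Mb.

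**Figure D1:**
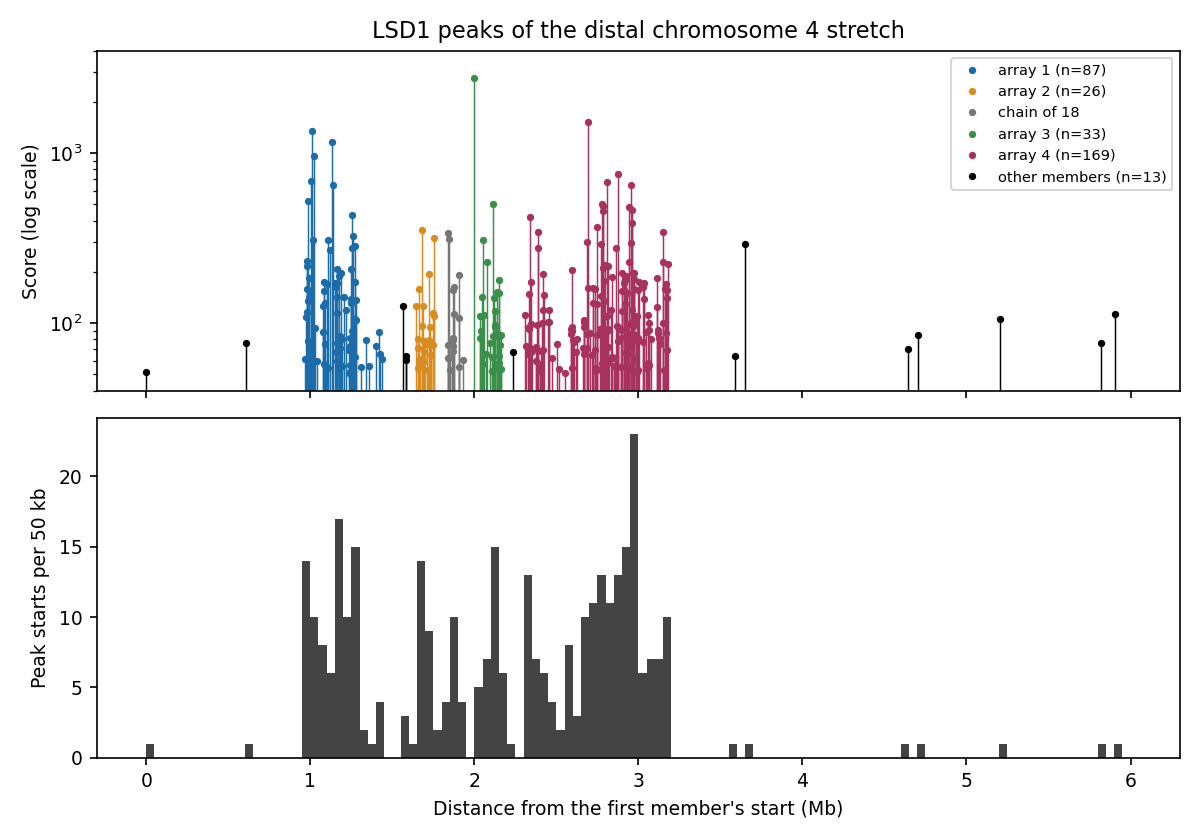
Members by position. The upper panel plots the score of each of the 346 peaks (log scale) and the lower panel the number of starts per 50 kb, both against the distance in Mb from the start of the first member. Colours mark the 4 arrays, the chain of 18 and the 13 other members. The blocks are separated by gaps with few or no peaks, and the 13 other members stand apart on both sides and between the blocks.

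Array 1, at chr4:144983639-145452117, held 87 peaks over 468 kb. Their median length was 661 bp, the longest of them measured 9396 bp, and together they covered 21.5% of the span. The peaks thinned out towards its distal end, where a step of 45.1 kb between starts separated the last 4 peaks from the other 83. Its first and last peaks were short and weak, 200 bp with a score of 61.35 and 636 bp with a score of 61.44.

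Array 2, at chr4:145659818-145771233, was the smallest, with 26 peaks over 111 kb. Its median length was 507.5 bp, its longest peak was 1619 bp, and its peaks covered 13.9% of the span. The chain of 18 followed at chr4:145855145-145946821 over 91.7 kb, where the median length was 488 bp and 13.5% was covered. These neighbouring blocks thus had the lowest median lengths and the lowest coverage of the 5.

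Array 3, at chr4:146017370-146178750, held 33 peaks over 161 kb, and their median length was 567 bp, with 20.3% of the span covered. It opened with the strongest member of the whole stretch, a peak of 8593 bp with a score of 2769.9. That peak stood alone, because the next start followed only after 32.9 kb, and the other 32 peaks of the array lay beyond this gap. It belongs to the array only because the rule joins starts up to 50 kb apart.

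Array 4, at chr4:146322973-147195662, held 169 peaks, 48.8% of all members, over 873 kb. The median length was 695 bp, the longest peak measured 4404 bp and 16.9% of the span was covered. Its widest step, 39.7 kb between starts, divided it into 32 peaks on the proximal side and 137 on the distal side. Its last peak, chr4:147194506-147195662, was 1157 bp long with a score of 221.86, and no other start followed for 409 kb. Array 4 was therefore the longest block by far, while its median spacing and its coverage were inside the range of the other arrays.

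The 13 members outside these blocks included 10 peaks with no other start within 50 kb and 1 group of 3 at chr4:145584303-145601177. They were short (median 436 bp, longest 864 bp), and none reached 1 kb. Their scores ran from 51.34 to 292.94 with a median of 76.36. The highest score belonged to chr4:147667380-147667881, a 502 bp peak.

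Within the blocks the peaks were grouped again at a finer scale. Groups were taken as at least 5 peaks with consecutive starts at most 10 kb apart. There were 24 of them with 287 members (82.9%): 4 groups in array 1, 3 each in arrays 2 and 3, 12 in array 4 and 2 in the chain of 18. They held from 5 to 44 peaks, with a median of 8, and spanned 9.18 to 112 kb. The share of a group that was covered by peaks ranged from 14.5 to 76.1%, with a median of 33.6%.

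Groups of array 1 with equally many peaks differed in peak length. The first, at chr4:144983639-145044039, held 23 peaks whose median length was 1172 bp, and 58.7% of its 60.4 kb was covered. The fourth, at chr4:145254211-145296499, also held 23 peaks, but their median length was 596 bp and 45.0% was covered. The groups between them held 12 and 17 peaks and were covered to 26.5 and 36.8%.

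In array 4 the largest group, at chr4:146910708-147023157, held 44 peaks over 112 kb, of which 16 were 1 kb or longer. Next to it on the proximal side lay a group of 8 peaks at chr4:146867425-146895394, whose median length was 1149.5 bp. A small group of 5 at chr4:146702980-146713148 was the most completely covered of all 24, at 76.1%, and held the strongest peak of the array. Distal to the largest group 2 others, at chr4:147062948-147092782 and chr4:147129174-147150978, were covered to only 14.7 and 14.5%. High and low coverage therefore stood side by side inside the same array.

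Members were longer than the peaks of the rest of the chromosome. Their median length was 610 bp (lower and upper quartiles 425.75 and 1023.5 bp), against 419 bp (354 and 552 bp) for the 537 proximal peaks. A length of 1 kb or more was reached by 90 members, 26.0% (95% exact binomial interval 21.5 to 31.0%), and by 17 of the 537, 3.17% (interval 1.85 to 5.02%). The intervals cover counting error only and treat neighbouring peaks as independent. For 2 kb or more the counts were 25 and 1. Of all 746 peaks of 1 kb or more in the list, 12.1% were members, and of the 141 peaks of 2 kb or more, 17.7% were. Without array 4 the remaining 177 members had a median of 559 bp, with 25.4% at 1 kb or more, so the long peaks were not a matter of that array alone.

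The arrays differed in how many long peaks they held. In array 1, 32 of 87 peaks (36.8%) reached 1 kb, and in array 4 45 of 169 (26.6%) did. The share was 21.2% in array 3, with 7 peaks, 16.7% in the chain of 18 and 11.5% in array 2, with 3 peaks each. Array 2 had no peak of 2 kb or more, while array 1 had 9, array 3 had 3 and array 4 had 12. In all 5 blocks the median length was above the 419 bp of the proximal peaks.

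**Figure D2:**
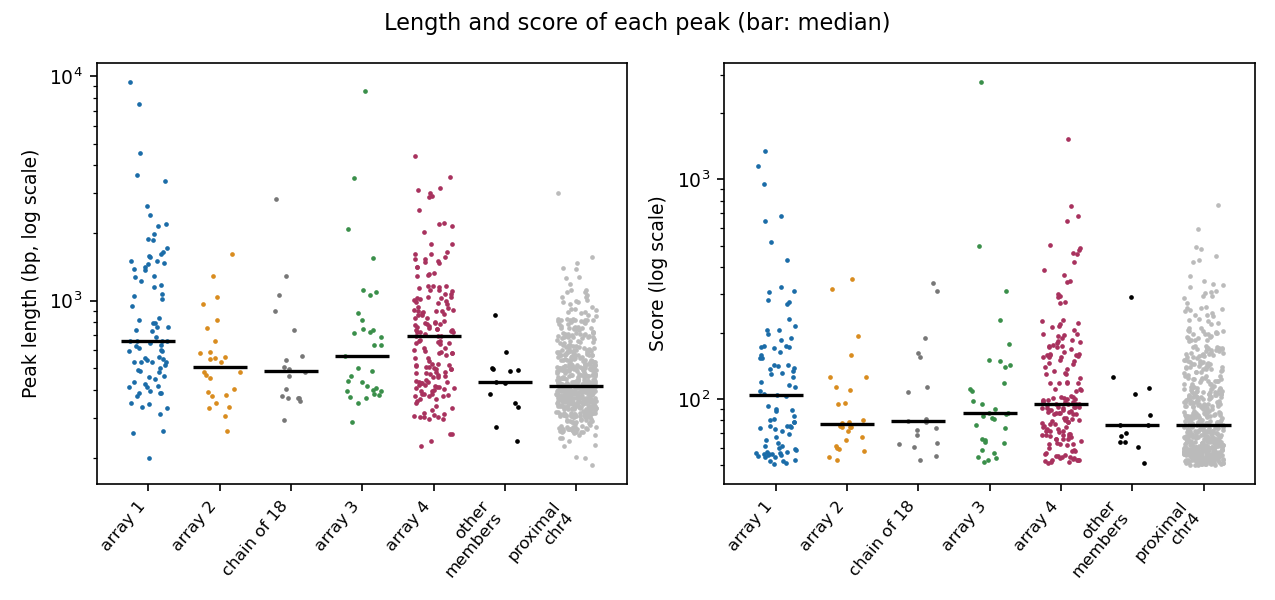
Length in bp (left) and score (right) of each peak on log scales, for the 4 arrays, the chain of 18, the 13 other members and the 537 proximal peaks of chromosome 4. Points are single peaks, spread sideways only for visibility, and bars are medians. Arrays 1 and 4 reach the highest medians, 661 and 695 bp in length and 104.9 and 95.33 in score.

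Members also ranked higher by score. The median score was 92.1 for members and 76.0 for proximal peaks, and 63.0% against 47.3% of peaks scored at or above the median of the whole list, 78.25. Array 1 had a median score of 104.9, array 4 of 95.33, array 3 of 86.33, the chain of 18 of 79.17 and array 2 of 76.95. The order of the blocks by score was nearly that by length, with arrays 1 and 4 highest and array 2 and the chain of 18 lowest. Without array 4 the median score of the members was 84.43.

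In each length class from 400 bp upwards, the median score of members was below that of proximal peaks. Among peaks of 400 to under 600 bp the median score was 78.9 for 101 members and 98.2 for 199 proximal peaks. From 600 to under 1000 bp it was 126.54 for 85 members and 141.335 for 88 peaks, and at 1000 bp or more 190.23 for 90 members and 199.42 for 17. This last class has no upper limit and is not matched in length: 25 members but only 1 proximal peak reached 2 kb. Under 400 bp the values were close, 62.8 for 70 members and 59.8 for 233 peaks. The higher median score of all members was therefore not seen within the 3 longer classes. Score and length rose together to the same degree in both sets, with a Spearman coefficient of 0.71 across the 346 members and 0.71 across the 537 other peaks. Both values of a peak come from the same caller and the same libraries.

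The 10 highest scores of the stretch belonged to arrays 1, 3 and 4, with 5, 1 and 4 peaks. The highest, chr4:146017370-146025962 in array 3 (score 2769.9), ranked 2nd in the whole list. In array 4 the highest was chr4:146708745-146713148, 4404 bp long with a score of 1522.32. It was followed by chr4:146892370-146895394 (3025 bp, score 753.8), chr4:146825510-146827532 (2023 bp, 679.31) and chr4:146968512-146971436 (2925 bp, 648.67).

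In array 1 the high scores came from 2 places. One was a set of neighbours in its first group: chr4:145021366-145025001 (3636 bp, score 679.9), chr4:145025032-145032517 (7486 bp, 1348.76) and chr4:145036258-145040798 (4541 bp, 956.18). The other was the pair chr4:145146823-145156218 (9396 bp, 1155.6) and chr4:145156260-145158654 (2395 bp, 644.18). The former of this pair was the widest member. The 5 widest members were all among the 10 highest scores: 3 lay in array 1, 1 in array 3 and 1 in array 4. Of the 25 peaks in the list with a score of 1000 or more, 4 were members and none was a proximal peak of chromosome 4.

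Many members nearly touched their neighbour. Of the steps from one member to the next, 158 (45.8%) had at most 1 kb between the end of one peak and the start of the next, and 46 had at most 100 bp. Among proximal peaks the counts were 24 (4.48%) and 4. Closeness of this kind, and the joining of peaks described next, follow in part from the density for which the stretch was chosen. When peaks across gaps of up to 1 kb were counted as 1 region, the 346 members became 188 regions, and 226 members (65.3%) lay in a region of several peaks. Of the proximal peaks, 43 of 537 (8.01%) did.

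The longest joined region, chr4:145016483-145040798, was made of 8 peaks over 24316 bp in the first group of array 1. It held all 3 of the high-scoring neighbours named above. The next, chr4:146968512-146988225, was made of 13 peaks over 19714 bp inside the largest group of array 4, and chr4:145262690-145278421 of 11 peaks over 15732 bp in the fourth group of array 1. The widest member formed a joined region with 1 neighbour only, chr4:145146823-145158654. Joined regions were thus built in more than one way, from a single broad peak or from many shorter ones.

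**Figure D3:**
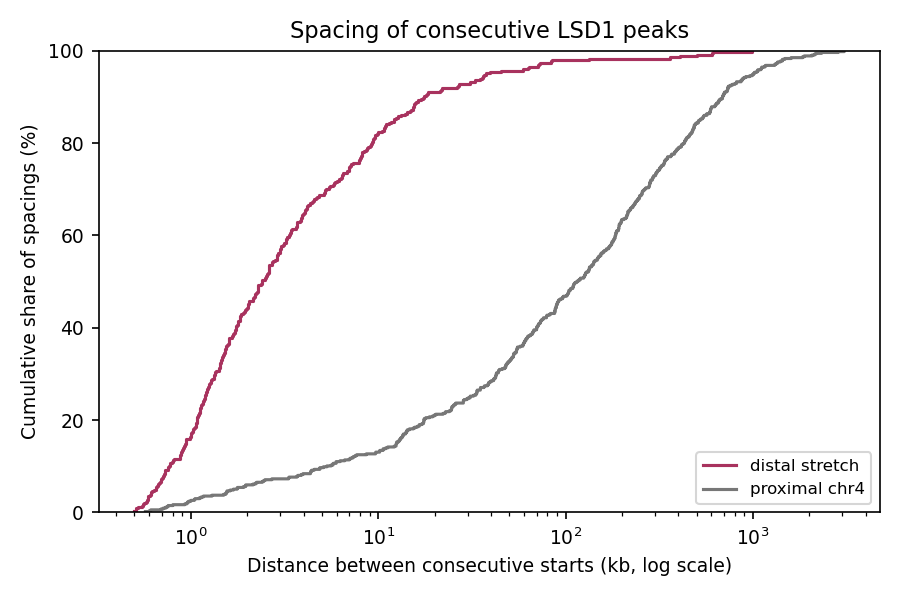
Cumulative share in percent of the distances between consecutive starts (kb, log scale) for members and for proximal peaks of chromosome 4. The curve of the members has its median at 2.40 kb and that of the proximal peaks at 115 kb.

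The distance between consecutive starts had a median of 2.40 kb (quartiles 1.19 and 7.09 kb) in the stretch and 115 kb (31.0 and 325 kb) among proximal peaks. These distances follow from the density by which the stretch was chosen. The medians of the arrays lay close together: 1.91 kb in array 1, 2.20 kb in array 4, 2.76 kb in array 2 and 2.82 kb in array 3, with 1.54 kb in the chain of 18. In all, 320 members (92.5%) had another start within 10 kb, against 121 of 537 (22.5%) of the proximal peaks. The proximal part had no array, and its largest chain held 7 peaks, at chr4:3007460-3018824. The median length of these 7 was 817 bp, and 2 of them reached 1 kb.

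No single distance between starts dominated. All pairs of member starts from 1 kb to 1 Mb apart were listed, 35907 in number, and for each distance the pairs within 50 bp of it were counted. The median over all distances was 3 pairs and the 99th percentile was 10. The highest count was 19 pairs, at 2.64 kb, where distances within 2.5 kb had a mean of 10.0. This distance depended on the settings: the most frequent one was 1440 bp with a tolerance of 20 bp, 1260 bp with 200 bp, 1730 bp between peak centres and 3270 bp among peaks at or above the median score. The pairs at 2.64 kb are therefore described below only as those of the chosen setting. At 1.09 and 9.28 kb there were 18 pairs each, against local means of 10.6 and 7.55. At 3.82, 23.29 and 38 kb there were 16 each, against 9.27, 6.69 and 6.07. Among proximal peaks the highest count was 5 of 2831 pairs, at 1.52 kb, against a local mean of 1.47. Maxima above the local mean therefore appeared in both sets, and whether any of them exceeds what so many distances give was not tested.

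**Figure D4:**
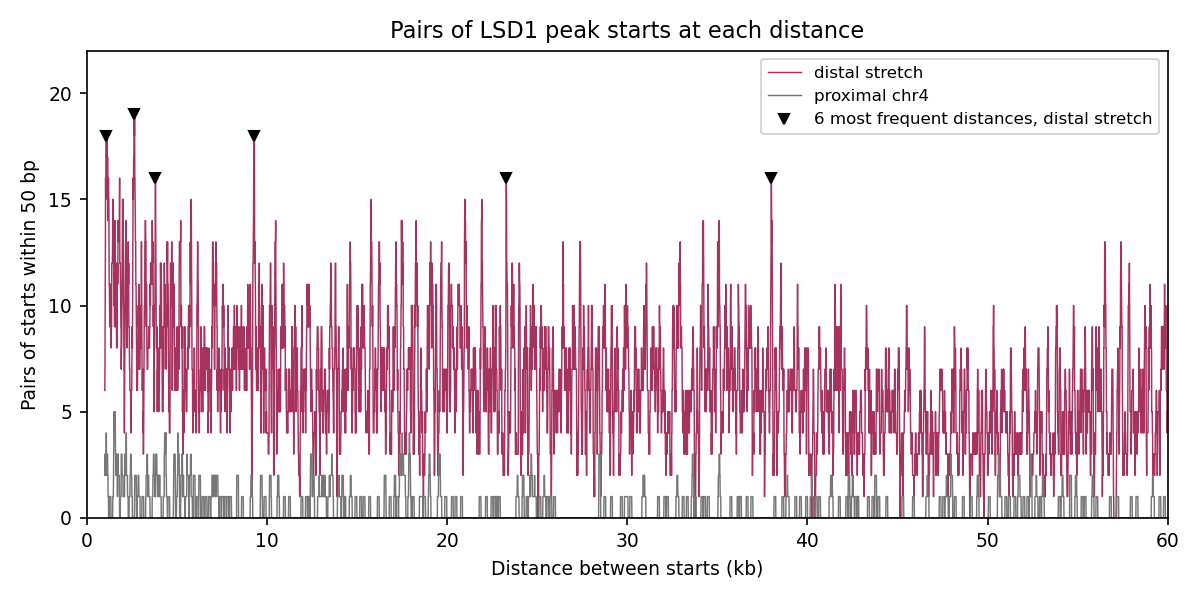
Number of pairs of starts within 50 bp of each distance from 1 to 60 kb, for members and for proximal peaks of chromosome 4. Triangles mark the 6 most frequent distances of the stretch, up to 19 pairs at 2.64 kb. The background of pairs is broad and declines with distance, and the mark at 1.09 kb lies within a raised range of short distances.

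The pairs at 2.64 kb came from all blocks, with 6 in array 1, 1 in array 2, 5 in array 3, 6 in array 4 and 1 in the chain of 18. In the same order, these blocks held 25.1, 7.51, 9.54, 48.8 and 5.20% of all members, so the pairs were not spread in proportion. The highest-scoring pair joined chr4:144994584-144996779 (2196 bp, score 216.1) and chr4:144997181-144998405 (1225 bp, 230.85), whose starts were 2597 bp apart. Of the 19 pairs, 7 were of consecutive peaks, and the others had further starts between them. In 2 places, 3 starts stood at 2 successive steps near this distance. In array 3 these were 146067720, 146070348 and 146072964, at steps of 2628 and 2616 bp, and the 3 peaks were 370, 380 and 435 bp long. Another start lay within the second of these steps but not within the first. In array 1 the 3 starts were 145254211, 145256866 and 145259476, at steps of 2655 and 2610 bp, with lengths of 262, 542 and 596 bp. Here other starts lay within both steps.

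Peaks paired at the most frequent distances were not consistently alike. The difference in length between the members of a pair, as the median absolute log2 ratio, was 0.81 over all 35907 pairs. It was 0.70 for the pairs at 2.64 kb and 0.55 at 1.09 kb, but 1.18 at 9.28 kb and 1.22 at 23.29 kb. Of the 19 pairs at 2.64 kb, 9 had lengths within 1.5 times of each other. Of the 18 pairs at 9.28 kb, 10 lay in array 4, which held 48.8% of all members, and those at 23.29 kb were spread as 4, 2, 7 and 3 over arrays 1, 2 and 4 and the chain of 18.

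A search for repeated patterns of starts found partial matches only. A pattern was sought as a run of starts, each within 15 kb of the next, that had partners at 1 common shift with a total tolerance of 200 bp. The largest run with the same order matched 8 starts inside array 4 at a shift of 129 kb. The first part ran from 146786262 to 146829057 and held 18 starts in all, and the second part ran from 146915700 to 146958577 and held 17. With the order mirrored, the largest run also matched 8 starts, of 14 in array 1 and 12 in array 4. Its parts ran from 144993950 to 145017261 and from 146784369 to 146807697. The latter overlapped the first part of the run with the same order, so the 2 matches are not separate. The lengths of the matched peaks differed by a median absolute log2 ratio of 0.74 in the run with the same order and 0.997 in the mirrored one. In the run with the same order, 10 of the 18 starts of the first part thus had no partner. The search keeps the best match over all shifts, so some match was bound to appear among such dense starts. Whether 8 matched starts exceed what this density gives was not tested.

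The groups did not follow each other at a fixed step either. Measured from group start to group start within a block, the 19 distances ranged from 25.3 to 214 kb with a median of 66.2 kb. They were 71.1 to 112 kb in array 1 and 28.3 and 31.5 kb in array 2. In array 4 they covered the whole range from 25.3 to 214 kb.

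Peaks covered 315 kb or 4.50% of the 7 Mb stretch, against 0.186% of the chromosome from its first peak to the start of the stretch. Inside the 4 arrays the share was 13.9 to 21.5%. By the same rule, 20 other dense chains lay on placed chromosomes, and they were covered to between 2.98 and 63.0%, with a median of 17.8%. The arrays of chromosome 4 held 18.6 to 23.3 peaks per 100 kb, within the 6.90 to 35.8 of the other chains. Their median lengths, 507.5 to 695 bp, also lay within the range of the others, 384.5 to 2312 bp. The middle value of the other chains was 634.25 bp for median length and 23.1% for peaks of 1 kb or more. Median score, median spacing and the share of peaks of 1 kb or more lay within the others' range as well. Among these measures, arrays 1 and 4 lay outside it only in number of peaks and in span. The other chains held at most 66 peaks and spanned at most 377 kb, and both arrays exceeded this. Number and span rest on the 50 kb step: with steps of at most 20 kb, array 1 fell into 2 arrays. Array 4 was cut too, among others at its steps of 39.7, 37.5 and 36.9 kb. Only 1 array of it remained, chr4:146677710-147023157, and its span was below 377 kb. The values of the other chains are for the 50 kb step only.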

How the data were processed

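Reads were aligned with BWA to mm9, per the submitters' processing notes, and peaks were called with MACS in Galaxy, per the file header. Tool versions, caller settings and how reads matching several places were handled are not given in the sources used. Each row of the deposited list holds a start, an end and 1 score from the authors' caller. Starts were converted to 1-based positions. From these, chains of starts, peak lengths, covered bases, joined regions and pairwise distances were computed. Distances were counted in steps of 10 bp, and those named lay at least 1 kb apart. On simulated positions the procedures recovered a planted array, distance and pattern. The other simulated starts were sparser than those of the arrays, and no case without a planted signal was run. Named peaks were the 10 highest scores, the 5 widest, those next to the limits, array ends and pairs at the most frequent distance. The members, lists and rules were chosen with earlier results of these data known. The length classes, joined-region comparison, pattern search, tie at the last distance and omission of the largest array were added after seeing values. The software was matplotlib 3.10.9, pandas 2.3.3, scipy 1.17.1, numpy 2.4.6 and Python 3.11.15.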

Additional observations from a re-analysis of the deposited data

How the results depend on the processing

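The number of arrays was 3 to 5 under the alternatives tried, but they were not always the same ones. With steps of at most 10 kb the 4 arrays were parts of arrays 1 and 4, 2 in each, and arrays 2 and 3 were lost. Array 2 was also lost among peaks at or above the median score and with peaks joined across 1 kb, which left 3 arrays each. The share of members in arrays was 67.9% with steps of at most 20 kb, 32.1% with 10 kb, 96.2% with at least 10 peaks, 71.6% among peaks whose score reached the median of the list and 79.8% with peaks joined across 1 kb. For the last 2 settings and without the 1% widest peaks, the covered share was 3.59, 5.28 and 3.41%. That 1% was not of the members: 327 of the 346 members and 536 of the 537 proximal peaks remained. Among peaks at or above the median score, the median length was 800 bp, the share of 1 kb or longer was 38.1%, the median score was 136.99 and the median spacing was 3463 bp. With joined peaks the median length was 818 bp, the share 44.1% and the spacing 7693 bp. Without the largest array the median score was 84.43. Selecting by score raises the median score by construction, and length rose together with score. Among proximal peaks at or above the median score, the median length was 512.5 bp, 6.30% reached 1 kb and the median score was 119.91. With joined proximal peaks the median length was 423 bp and the share 5.85%. The most frequent distance was not stable: it was 1440 bp with a tolerance of 20 bp, 1260 bp with 200 bp, 1730 bp between peak centres and 3270 bp among peaks at or above the median score. No paired analysis was possible because there was 1 library of each kind, and for that reason no replicate was left out. Unknown depth limits what can be said of peaks that were not called.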
